A study of Mus musculus with 9 samples.

Results

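Eicosanoid synthesis genes were followed across 9 RNA sequencing libraries of mouse fetal liver blood cells. The set held 8 of the 55488 genes in the deposited tables: Ptgs1, Ptgs2, Tbxas1, Alox5, Alox5ap, Lta4h, Ltc4s and Alox12. They were chosen by function around Tbxas1, which was selected on its own difference between WT HSC and WT KL cells in these libraries. That difference is therefore given for the 8 genes as a description, with no test. All 8 symbols were found, each as 1 row in each of the 9 tables. Of these, 6 reached 1 TPM (the deposited unit, a share of transcripts scaled by gene length) in at least 3 libraries and entered the fit, among 19461 tested genes in all. Alox12 did so only through the group in which it was highest, so it is given as values with no test, as are Alox5 and Ptgs2, which did not reach that level.

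Each of the 3 groups had 3 libraries, made from 100 sorted cells each, from C57BL/6 fetal livers at embryonic day 14.5, and all embryos carried the ROSA-Evi1 allele. Evi1 HSC were GFP+ cells of the haematopoietic stem cell (HSC) gate, which takes c-Kit+ Sca-1+ CD150+ cells free of CD48 and lineage markers, from embryos that also carried Tie2-Cre. Mecom encodes Evi1, a zinc finger protein that binds DNA. The Tie2 promoter, which drives the Cre recombinase, is active in endothelium as well as in blood, so it is not restricted to stem cells. WT HSC were sorted through these surface markers alone, with no GFP criterion, in embryos lacking Cre. WT KL were c-Kit+ cells without Sca-1 or lineage markers, a gate of committed progenitors, from the same Cre-free genotype. The labels do not say whether embryos were pooled or whether the libraries of a group came from separate embryos, so the p-values reflect the spread among these libraries, which may be technical.

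Mecom, the gene under test, had 209, 176 and 210 TPM in Evi1 HSC, and WT HSC replicates 1 and 2 had 161 and 114 TPM. A pair of libraries went against their labels: Mecom was at 0.0167 TPM under the label WT HSC replicate 3 and at 90.8 TPM under the label WT KL replicate 1, with 0.0107 and 0.325 TPM in WT KL replicates 2 and 3. For Ly6a, which encodes Sca-1, Evi1 HSC had 39.1, 58.6 and 20.7 TPM, while WT HSC replicates 1 and 2 had 13.2 and 17.6 TPM. The library labelled as replicate 3 of WT HSC listed it at 0. Of those labelled WT KL, replicate 1 had 19.7 TPM, replicate 2 listed it at 0 and replicate 3 had 0.0354 TPM. Summed over 7 stem cell markers, Evi1 HSC held 576 to 696 TPM. WT HSC replicates 1 and 2 came to 563 and 575 TPM, but the library labelled as their replicate 3 to 2.33 TPM. WT KL replicates 2 and 3 came to 2.78 and 4.33 TPM, but the library labelled as their replicate 1 to 532 TPM. Every comparison is given with the 9 libraries as labelled and with 7 libraries, from which these 2 were left out, leaving 2 libraries in each WT group. The read depth of the libraries is unknown, because TPM does not keep it. Between 15422 and 18806 genes reached 1 TPM per library, the 3 lowest counts being those of the library labelled WT HSC replicate 3 and of WT KL replicates 2 and 3.

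Eicosanoids are signalling lipids made from arachidonic acid, which phospholipases free from membranes. The cyclooxygenases PTGS1 and PTGS2 turn it into prostaglandin H2, which terminal synthases convert further, among them TBXAS1, the thromboxane synthase best known from platelets. In the leukotriene branch, ALOX5 acts together with its membrane partner ALOX5AP (FLAP) to make leukotriene A4, which LTA4H turns into the neutrophil attractant leukotriene B4 and LTC4S into the cysteinyl leukotriene C4. ALOX12 is the lipoxygenase of platelets. Prostaglandin E2 is known as a signal that regulates haematopoietic stem cells.

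**Figure D1:**
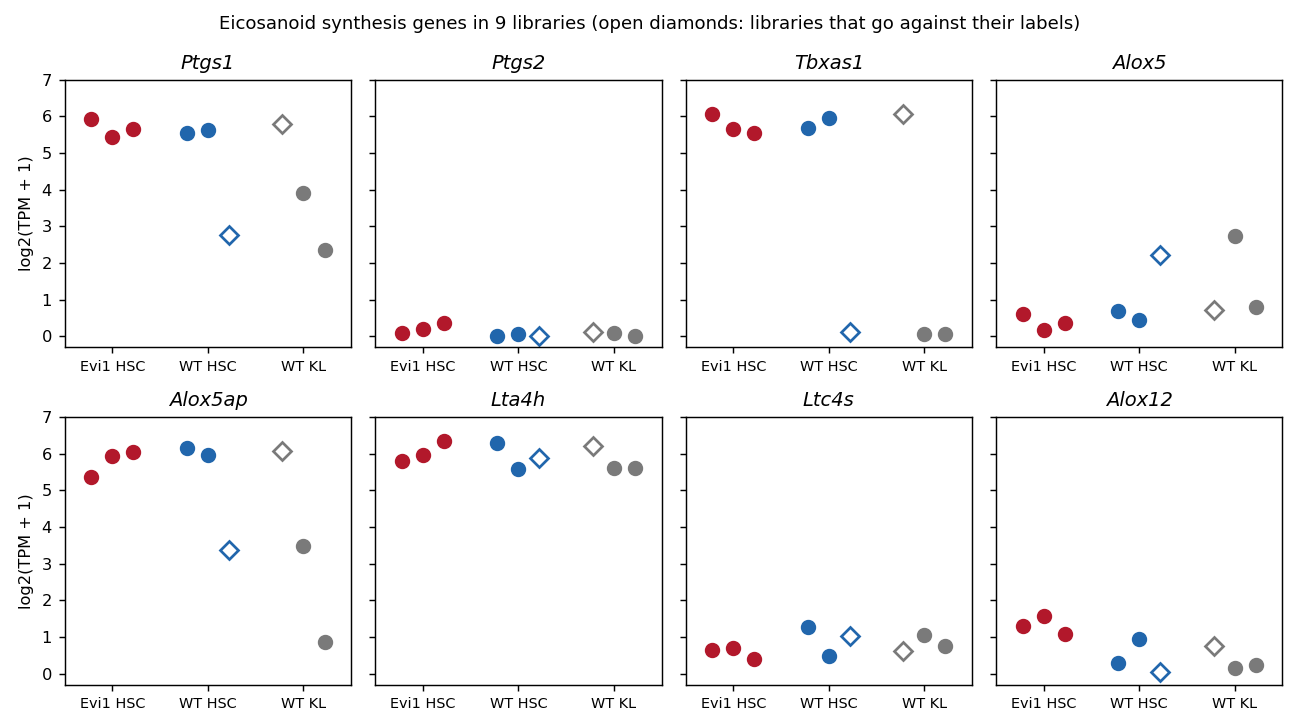
Expression of the 8 genes in each library, as log2(TPM + 1), with 1 panel per gene and 1 point per library, replicates 1 to 3 from left to right in each group. Open diamonds mark the libraries labelled WT HSC replicate 3 and WT KL replicate 1. Ptgs1, Tbxas1 and Alox5ap sit high in the same 6 libraries and low in the other 3, Lta4h is high in all 9, and Ptgs2 is below 0.3 TPM throughout.

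Of the cyclooxygenases, Ptgs1, the constitutive enzyme, carried nearly all of the signal. Evi1 HSC had 59.8, 42.5 and 49.5 TPM of Ptgs1. Among libraries labelled WT HSC, replicates 1 and 2 had 45.7 and 48.5 TPM, but replicate 3 had 5.85 TPM. Among those labelled WT KL, replicate 1 had 54.4 TPM, but replicates 2 and 3 had 13.95 and 4.15 TPM. The Evi1 HSC values thus overlapped those of WT HSC replicates 1 and 2 and lay above WT KL replicates 2 and 3. In bulk libraries such as these, fewer cells that express a gene and less RNA per cell cannot be told apart. Ptgs2, the inducible enzyme of inflammation, was at 0.0649, 0.143 and 0.294 TPM in Evi1 HSC. It was at 0.0536 TPM in WT HSC replicate 2 and listed at 0 in the other libraries labelled WT HSC. In the libraries labelled WT KL it was at 0.0801 and 0.0751 TPM in replicates 1 and 2 and listed at 0 in replicate 3.

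Tbxas1, which turns the product of the cyclooxygenases into thromboxane A2, showed the widest range of the 8 genes on the log2(TPM + 1) scale used for the tests. Evi1 HSC had 66.2, 49.4 and 46.2 TPM of it. Under the WT HSC label, replicates 1 and 2 had 50.6 and 61.0 TPM and replicate 3 had 0.0829 TPM. Under the WT KL label, replicate 1 had 65.6 TPM and replicates 2 and 3 had 0.0441 and 0.0407 TPM. The gene was near 0 in the same 3 libraries in which Ly6a was, and in no other. The ratio of Tbxas1 to Ptgs1, both in TPM, was 0.934 to 1.16 in Evi1 HSC, 1.11 and 1.26 in WT HSC replicates 1 and 2, and 1.21 in the library labelled WT KL replicate 1. It was 0.00316 and 0.00979 in WT KL replicates 2 and 3 and was 0.0142 in the library labelled replicate 3 of WT HSC. Where Tbxas1 was near 0, Ptgs1 was therefore lower but still present.

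In the leukotriene branch, the membrane partner far exceeded the enzyme in Evi1 HSC and in WT HSC replicates 1 and 2. Evi1 HSC had 40.6, 60.8 and 65.8 TPM of Alox5ap. Replicates 1 and 2 of WT HSC had 69.9 and 61.5 TPM, and the library labelled replicate 3 had 9.39 TPM. The library labelled replicate 1 of WT KL had 66.3 TPM, and replicates 2 and 3 had 10.2 and 0.836 TPM. Alox5ap was thus low in the same 3 libraries as Tbxas1, though to unequal degrees. Evi1 HSC had 0.521, 0.139 and 0.285 TPM of Alox5, and replicates 1 and 2 of WT HSC had 0.616 and 0.352 TPM. Its highest values were 3.62 TPM, under the label WT HSC replicate 3, and the 5.63 TPM of WT KL replicate 2. WT KL replicate 3 was at 0.729 TPM, close to the 0.654 TPM of the library labelled WT KL replicate 1. Alox5ap exceeded Alox5 by 77.9 to 437 times in Evi1 HSC and by 114 and 174 times in WT HSC replicates 1 and 2. The library labelled replicate 3 of WT HSC gave a ratio of 2.59, and the one labelled replicate 1 of WT KL gave 101. WT KL replicates 2 and 3 gave 1.80 and 1.15.

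Lta4h, which encodes the leukotriene A4 hydrolase, was high in every library. It followed Alox5ap only loosely (Pearson r = 0.609 of log2(TPM + 1) over the 9 libraries). Evi1 HSC had 55.0, 61.1 and 81.0 TPM of it. The libraries labelled WT HSC held 76.7, 47.2 and 57.7 TPM, and those labelled WT KL held 72.9, 48.0 and 47.7 TPM. The 3 groups overlapped. Ltc4s, the leukotriene C4 synthase gene, was at 0.579, 0.627 and 0.334 TPM in Evi1 HSC. Libraries labelled WT HSC had 1.40, 0.404 and 1.04 TPM, those labelled WT KL 0.526, 1.07 and 0.678 TPM. These groups overlapped too, all within low values.

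Alox12, the platelet lipoxygenase gene, was low in all 9 libraries and highest in Evi1 HSC, at 1.45, 1.99 and 1.13 TPM. The libraries labelled WT HSC held 0.215, 0.942 and 0.0267 TPM, and those labelled WT KL held 0.702, 0.126 and 0.180 TPM. The lowest Evi1 HSC value, 1.13 TPM, lay near the 0.942 TPM of WT HSC replicate 2. How many of all genes part the groups in this way was not counted. Only the Evi1 HSC libraries reached 1 TPM, so the filter kept Alox12 for being high in that group, and no test is read from it.

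By level, the 8 genes formed an upper and a lower tier in Evi1 HSC. Lta4h averaged 65.7 ± 13.6 TPM, Alox5ap 55.7 ± 13.3 TPM, Tbxas1 53.9 ± 10.7 TPM and Ptgs1 50.6 ± 8.73 TPM (SD, n = 3 each), and neighbours in this order differed by less than their SD. Alox12 followed at 1.52 ± 0.436 TPM, then Ltc4s at 0.513 ± 0.157 TPM, Alox5 at 0.315 ± 0.193 TPM and Ptgs2 at 0.167 ± 0.116 TPM (SD, n = 3 each). In this lower tier the step from Alox12 to Ltc4s exceeded both SDs, that from Ltc4s to Alox5 exceeded them narrowly, and that from Alox5 to Ptgs2 was smaller than the SD of Alox5.

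Setting Evi1 HSC against WT HSC compares stem cells of the same surface gate with and without added Evi1. These groups also differ in Tie2-Cre and in sorting on GFP, so added Evi1 cannot be told apart from either. None of the 5 tested genes was called with 9 or with 7 libraries at an adjusted p under 0.05 (limma, Benjamini-Hochberg over all tested genes). Of all tested genes, 0.00514% were called with 9 libraries and 0.206% with 7, so few calls of any kind were made. Before adjustment, 0 of the 5 had a limma p under 0.05 with either set. Of all 19461 tested genes, 907 had one with 9 libraries and 1635 with 7. On the log2(TPM + 1) scale, on which changes of low genes are understated, Tbxas1 differed by 1.84 (SE 1.90, adjusted p = 0.791) with 9 libraries as labelled. With 7 libraries its difference was −0.06 (SE 0.19, confidence interval at the 95% level −0.51 to 0.40, adjusted p = 0.969). High WT HSC values were part of what chose Tbxas1, so its p-values and interval here are not independent of that choice. Ptgs1 differed by 1.03 (SE 0.95, adjusted p = 0.791) with 9 libraries and by 0.09 (SE 0.41, interval −0.89 to 1.07, adjusted p = 0.98) with 7. For Alox5ap the difference was 0.63 (SE 1.21, adjusted p = 0.868) with 9 libraries and −0.26 (SE 0.68, interval −1.87 to 1.35, adjusted p = 0.960) with 7. The large positive values with 9 libraries came with the low values of the library labelled WT HSC replicate 3, and the sign for Tbxas1 and Alox5ap turned without it. With all 3 groups fitted together, the 7-library interval for Tbxas1 was the narrowest of these 3 genes. Those for Ptgs1 and Alox5ap left room for differences of 2-fold and more. They rest on a spread shared with the WT KL libraries. With the compared groups alone, the 7-library intervals were −0.54 to 0.42 for Tbxas1, −0.33 to 0.51 for Ptgs1 and −0.83 to 0.31 for Alox5ap. None of these reached 2-fold.

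Lta4h differed by 0.13 (SE 0.25, adjusted p = 0.873) with 9 libraries and by 0.10 (SE 0.24, interval −0.47 to 0.68, adjusted p = 0.955) with 7. Ltc4s differed by −0.34 (SE 0.27, adjusted p = 0.791) and, with 7 libraries, by −0.28 (SE 0.28, interval −0.95 to 0.38, adjusted p = 0.851). The untested Alox12 stood 0.89 higher in Evi1 HSC with 9 libraries and 0.70 higher with 7, but 0.36 higher when WT HSC replicate 1 was also left out. The untested Alox5 and Ptgs2 differed by −0.18 and 0.18 with 7 libraries.

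The comparison of Evi1 HSC with WT KL sets stem cells carrying Evi1 beside committed progenitors. With 7 libraries, Ptgs1 and Alox5ap rose in Evi1 HSC, Lta4h and Ltc4s were not called, and none fell. Tbxas1 was left untested here because its low level in WT KL was part of what chose it. Of all tested genes, 31.3% were called higher and 14.3% lower in this fit, so a call was common among all genes. With 9 libraries as labelled none of these 4 genes was called by limma, and 0 had an unadjusted p under 0.05. Of all 19461 tested genes, 0.0103% were called and 2956 had an unadjusted p under 0.05.

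Ptgs1 was higher by 2.54 (SE 0.41, adjusted p = 0.0028) with 7 libraries and by 1.66 (SE 0.95, adjusted p = 0.333) with 9. Alox5ap was higher by 3.62 (SE 0.68, adjusted p = 0.0051) with 7 libraries and by 2.32 (SE 1.21, adjusted p = 0.317) with 9. The 7-library p-values depend on leaving out the library labelled WT KL replicate 1, with 54.4 TPM of Ptgs1 and 66.3 TPM of Alox5ap. That choice was made on marker genes, which split the libraries as Ptgs1 and Alox5ap do. Both kept their call with any 1 further library left out of the 7, but their size depended on which WT KL library was used. Without WT KL replicate 3 the values were 1.77 for Ptgs1 (adjusted p = 0.0042) and 2.31 for Alox5ap (adjusted p = 0.0046). Without WT KL replicate 2 they were 3.31 (adjusted p = 8.0e-04) and 4.92 (adjusted p = 6.6e-04).

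The untested Alox12 stood 1.12 higher in Evi1 HSC with 7 libraries and 0.93 higher with 9, and 0.32 higher after quantile scaling of the 7. Lta4h differed by 0.43 (SE 0.24, adjusted p = 0.186) and Ltc4s by −0.31 (SE 0.28, adjusted p = 0.404) with 7 libraries. After quantile scaling Ltc4s was called lower, at −0.94 (adjusted p = 0.030). Tbxas1 stood 5.70 higher in Evi1 HSC with 7 libraries and 3.70 higher with 9. The untested Alox5 was lower in Evi1 HSC with 7 libraries, a difference of −1.38 that came mainly with the 5.63 TPM of WT KL replicate 2.

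**Figure D2:**
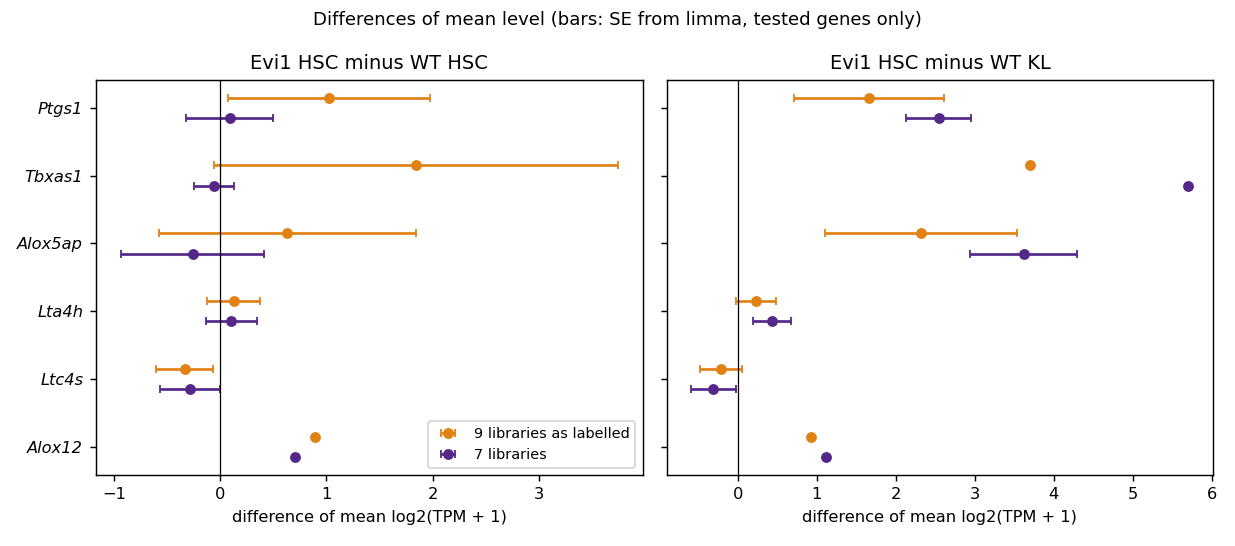
Differences of mean log2(TPM + 1) for the 6 genes that passed the filter, Evi1 HSC minus WT HSC on the left and Evi1 HSC minus WT KL on the right, with 9 libraries as labelled and with 7. Bars are SEs from limma, and none is drawn where no test was made, for Alox12 on both sides and Tbxas1 on the right. With 7 libraries, Ptgs1, Tbxas1 and Alox5ap lie within 0.3 of 0 on the left and at 2.54, 5.70 and 3.62 on the right.

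WT HSC against WT KL is the contrast from which Tbxas1 was taken. It shares the WT KL libraries with the comparison above and the WT HSC libraries with the first, so its values are no separate support. With 7 libraries, WT HSC exceeded WT KL by 5.76 for Tbxas1, 3.88 for Alox5ap, 2.45 for Ptgs1 and 0.33 for Lta4h. Alox12 stood 0.41 higher in WT HSC, but −0.41 after quantile scaling of the 7 libraries. The differences were −0.02 for Ltc4s, −1.20 for Alox5 and −0.01 for Ptgs2. With 9 libraries as labelled they were 1.86 for Tbxas1, 1.69 for Alox5ap and 0.63 for Ptgs1.

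Among named genes that averaged 10 TPM or more in a group, the 3 whose log2(TPM + 1) followed a gene most closely over the 9 libraries were listed. The libraries fall into 2 sets by stem cell markers, and the points share that split, so these r values are a description with no p. Tbxas1 was followed by Calcrl (Pearson r = 0.999), a receptor of calcitonin family peptides, by Mecomos (r = 0.999), a transcript at the Mecom locus, and by Itih5 (r = 0.999). Calcrl had 130, 96.4 and 119 TPM in Evi1 HSC, 109 and 127 TPM in WT HSC replicates 1 and 2, and 3.94 and 3.43 TPM in WT KL replicates 2 and 3. Ptgs1 was followed by Septin6 (r = 0.997), Vav1 (r = 0.996), which encodes a guanine nucleotide exchange factor of blood cells, and Smad4 (r = 0.995), the common mediator of TGF-beta signalling. Alox5ap was followed by Phf20 (r = 0.989), Lonp2 (r = 0.989) and Traf3ip3 (r = 0.987). The nearest genes to Lta4h had lower r, at 0.925 for Dhx35, 0.924 for Chchd7 and 0.903 for Scrn2.

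In GENCODE M21 (GRCm38, the mm10 assembly), Tbxas1 spans 38875404 to 39084585 of chromosome 6, on the plus strand. Alox5 spans 116410077 to 116461178 of that chromosome, on the minus strand. On the plus strand, Ptgs1 spans 36230426 to 36252272 of chromosome 2 and Ptgs2 spans 150100031 to 150108227 of chromosome 1. Alox5ap, from 149264767 to 149288153 of chromosome 5, and Lta4h, from 93453411 to 93484875 of chromosome 10, are plus-strand genes as well. Ltc4s and Alox12 are on chromosome 11, from 50236461 to 50238616 and from 70241457 to 70255353 (both minus strand). Parts of 4 genes overlap exons of predicted transcripts. These are 144 of 9094 exonic bases of Tbxas1, 148 of 3884 of Ptgs1, 189 of 1420 of Alox5ap and 268 of 1014 of Ltc4s. The sources used here do not give the strand setting of the counting, so the Ltc4s values are the least certain of these.

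Promoters are shown for genes of the upper tier, since Tbxas1 and Ptgs1 were high in the same 6 libraries and Lta4h was high in all 9. RefSeq (GRCm38.p6) gave a window of 300 bases, 250 before and 50 after the start site, for 7 of the 8 genes, Alox5ap not among them. Each window was searched on both strands for AGATAA, a motif of the GATA-binding family, for AGGAAG, a motif of the ETS family, and for TGTGGT, a motif of the RUNX family, and capitals mark the matches. The Tbxas1 window is chr6:38918736-38919035, the Ptgs1 window chr2:36230176-36230475 and the Lta4h window chr10:93453146-93453445, all on the plus strand.
Tbxas1: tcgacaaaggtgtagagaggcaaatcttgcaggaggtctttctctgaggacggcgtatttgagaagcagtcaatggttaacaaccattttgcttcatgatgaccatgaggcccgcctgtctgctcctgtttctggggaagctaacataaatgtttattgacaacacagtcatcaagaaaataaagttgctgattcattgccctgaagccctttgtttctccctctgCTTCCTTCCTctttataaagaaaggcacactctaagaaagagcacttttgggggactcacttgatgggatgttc
Ptgs1: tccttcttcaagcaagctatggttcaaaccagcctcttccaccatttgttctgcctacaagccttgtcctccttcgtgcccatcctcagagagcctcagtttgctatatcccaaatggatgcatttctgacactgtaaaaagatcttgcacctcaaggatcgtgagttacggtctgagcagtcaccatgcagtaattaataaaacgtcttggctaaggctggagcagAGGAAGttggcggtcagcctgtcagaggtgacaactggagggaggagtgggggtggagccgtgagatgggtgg
Lta4h: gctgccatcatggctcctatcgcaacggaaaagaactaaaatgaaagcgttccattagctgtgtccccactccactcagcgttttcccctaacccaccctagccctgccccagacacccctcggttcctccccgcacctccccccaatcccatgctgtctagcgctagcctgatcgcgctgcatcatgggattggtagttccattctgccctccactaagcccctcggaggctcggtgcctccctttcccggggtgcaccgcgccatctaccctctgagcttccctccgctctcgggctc

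The Tbxas1 window held the reverse complement of the ETS motif, CTTCCT, at −24 and, overlapping it, at −20, counted from the start site. The Ptgs1 window held AGGAAG at −23. The Lta4h window held none of the 3 motifs, and no window held the GATA or RUNX motif. Of all 32851 promoters of the table, 35.4% held the ETS motif, 11.2% the GATA motif and 16.8% the RUNX motif, so an ETS match in a window is common. The RefSeq start of Tbxas1 lies 43582 bases inside the GENCODE gene, and 3 of its 7 GENCODE transcripts start within 50 bases of it. The deposited values are per gene and do not show which start was used. GC content was 44.3% in the Tbxas1 window, 50.7% in that of Ptgs1 and 60.7% in that of Lta4h.

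The rest of the pathway was read from 7 lists of 84 symbols, of which 82 were in the tables, as 83 rows, and 42 rows were tested. In Evi1 HSC against WT HSC, 0 of the 42 were called by limma with 9 or with 7 libraries. An unadjusted p under 0.05 was held by 5 of the 42 with 9 libraries and by 7 with 7. Of all 19461 tested genes, 907 and 1635 had one. The median difference of the 42 with 7 libraries was −0.07, beside 0.00 over all tested genes. In Evi1 HSC against WT KL with 7 libraries, 15 rose, 14 fell and 13 were not called. That is 35.7% higher and 33.3% lower, beside 31.3% and 14.3% of all tested genes. Of those that rose, Tbxa2r, Cysltr2, Cyp4f16, Cyp4f13, Cyp2j6, Cyp2j9, Mgst1 and Akr1b8 were below 1 TPM in WT KL replicates 2 and 3. Ephx2, which fell, was below 1 TPM in all Evi1 HSC libraries. These genes passed the filter only through libraries in which they were high, so no p is given for them against WT KL. The median of the 42 was 0.38, beside 0.28 over all tested genes. With 9 libraries as labelled limma called 0 of the 42, with 10 at an unadjusted p under 0.05. Of all 19461 tested genes, 2956 had such a p. After quantile scaling the median over all genes was −0.08, against 0.28 without it, and 47.7% of all calls were higher, against 68.7%. None of the 29 pathway genes changed sign with it, and Lpcat3, Mgst1, Akr1b8 and Ptges3 lost their call. Without WT KL replicate 2 the count was 19 (11 rose, 8 fell), against 29.

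For arachidonate release and remodelling, 2 of 15 tested genes rose, 5 fell and 8 were not called in Evi1 HSC against WT KL with 7 libraries. Pla2g4a, the cytosolic phospholipase that frees arachidonate, rose by 1.48 (SE 0.19, adjusted p = 0.0010). Evi1 HSC had 34.9, 38.4 and 34.8 TPM of it, replicates 1 and 2 of WT HSC had 32.7 and 30.0 TPM, and replicates 2 and 3 of WT KL had 15.3 and 9.87 TPM. Fads1, a desaturase that makes arachidonate, rose by 0.96 (adjusted p = 0.015). Pla2g12a, a secreted phospholipase gene, fell by 3.46 (SE 0.38, adjusted p = 5.6e-04). Acsl4, which activates arachidonate as a CoA ester, fell by 1.58 (adjusted p = 3.2e-04). Pla2g4a thus stood with Ptgs1 and Tbxas1 on the higher side in Evi1 HSC, and the secreted enzyme on the lower side.

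Of 6 tested genes for other prostaglandin synthases, 3 rose, 2 fell and 1 was not called. Ptges3, the cochaperone that also acts as cytosolic prostaglandin E synthase, was the most abundant. Evi1 HSC had 98.7, 106 and 80.5 TPM of it, and replicates 2 and 3 of WT KL had 152 and 136 TPM. It fell by 0.60 (adjusted p = 0.016). Akr1b3, an aldose reductase with prostaglandin F synthase activity, rose by 0.52 (adjusted p = 0.012). Evi1 HSC had 49.7, 50.1 and 47.0 TPM of it, and replicates 2 and 3 of WT KL had 36.4 and 31.3 TPM. The inducible synthase gene Ptges, which was not called, had 0.623, 1.05 and 0.916 TPM in Evi1 HSC, against 1.37 and 3.45 TPM in replicates 1 and 2 of WT HSC. Ptgds and Ptgis, the synthases of prostaglandin D2 and prostacyclin, were at or below 0.296 TPM in all 9 libraries. Tbxas1, at 46.2 TPM or more in Evi1 HSC, was thus near Akr1b3 and below Ptges3 there, and above Ptges2, which was at 3.50 TPM or less.

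Of the lipoxygenase and 5-lipoxygenase partner list, 3 of 8 genes were tested, and 1 rose and 2 fell. Cotl1, an actin-binding partner of 5-lipoxygenase, rose by 1.23 (SE 0.24, adjusted p = 0.0058). The peroxidase genes Gpx4 and Gpx1, whose products reduce lipid peroxides, fell by 0.87 and 0.69 (adjusted p = 0.0021 and 0.0035). Alox15 was at 0.670 to 1.15 TPM in Evi1 HSC, so no lipoxygenase gene of these lists reached 2 TPM there. Among 4 tested genes for leukotriene C4 side enzymes and processing, Mgst1 stood 2.34 higher and Mgst3 fell by 1.96 (limma adjusted p = 0.0021). The other 2, Mgst2 and Gstm4, were not called.

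No receptor gene of the lists exceeded 6.35 TPM in any library. Of 4 tested prostanoid receptor genes, Tbxa2r and Ptger1 rose, Ptger4 fell and 1 was not called. Tbxa2r encodes the thromboxane receptor. Evi1 HSC had 5.43, 6.07 and 5.12 TPM of it, replicates 1 and 2 of WT HSC had 2.70 and 3.71 TPM, and replicates 2 and 3 of WT KL had 0.0878 and 0.0877 TPM. Tbxa2r stood 2.59 higher in Evi1 HSC than in WT KL, and its 0.64 against WT HSC did not pass (SE 0.19, limma adjusted p = 0.428). The libraries that were near 0 for Tbxas1, which makes the ligand, were thus near 0 for its receptor. A higher call in Evi1 HSC than in WT KL was common, at 31.3% of all tested genes with 7 libraries. How many genes were near 0 in these same libraries was not counted. Ptger1, the EP1 receptor gene of prostaglandin E2, rose by 1.26 (adjusted p = 0.0014), and Ptger4, which encodes EP4, fell by 1.04 (adjusted p = 0.045). Of the leukotriene receptors 1 was tested. Cysltr2, for cysteinyl leukotrienes, had 3.48, 2.50 and 2.41 TPM in Evi1 HSC, and replicates 1 and 2 of WT HSC had 1.80 and 2.17 TPM. Replicates 2 and 3 of WT KL listed it at 0, and it stood 1.91 higher in Evi1 HSC with 7 libraries. Ltb4r1, the leukotriene B4 receptor gene, was untested, with 0.121 to 0.522 TPM in Evi1 HSC, against 3.80 and 0.985 TPM in WT KL replicates 2 and 3.

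Of 9 tested genes for transport and breakdown, 5 rose, 3 fell and 1 was not called. Cyp4f16, of a family of fatty acid and leukotriene hydroxylases, stood 3.33 higher in Evi1 HSC than in WT KL. Evi1 HSC had 13.1, 9.37 and 12.2 TPM of it, against 0.327 and 0.153 TPM in replicates 2 and 3 of WT KL. Replicates 1 and 2 of WT HSC had 6.49 and 13.6 TPM. Abcc1, an exporter of leukotriene C4, rose by 0.71 (adjusted p = 0.0096). Ptgr1 and Ptgr2, reductases that inactivate leukotriene B4 and prostaglandins, fell by 1.08 and 1.34 (adjusted p = 0.0042 and 0.0023). Replicates 1 and 2 of WT HSC had 10.1 and 10.9 TPM of Ptgr1, near the 9.82, 9.80 and 7.34 TPM of Evi1 HSC. For Ptgr2 they had 15.2 and 10.4 TPM, against 6.52, 5.23 and 4.96 TPM in Evi1 HSC. Its difference of −1.06 against WT HSC was not called (SE 0.21, limma adjusted p = 0.169).

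**Figure D3:**
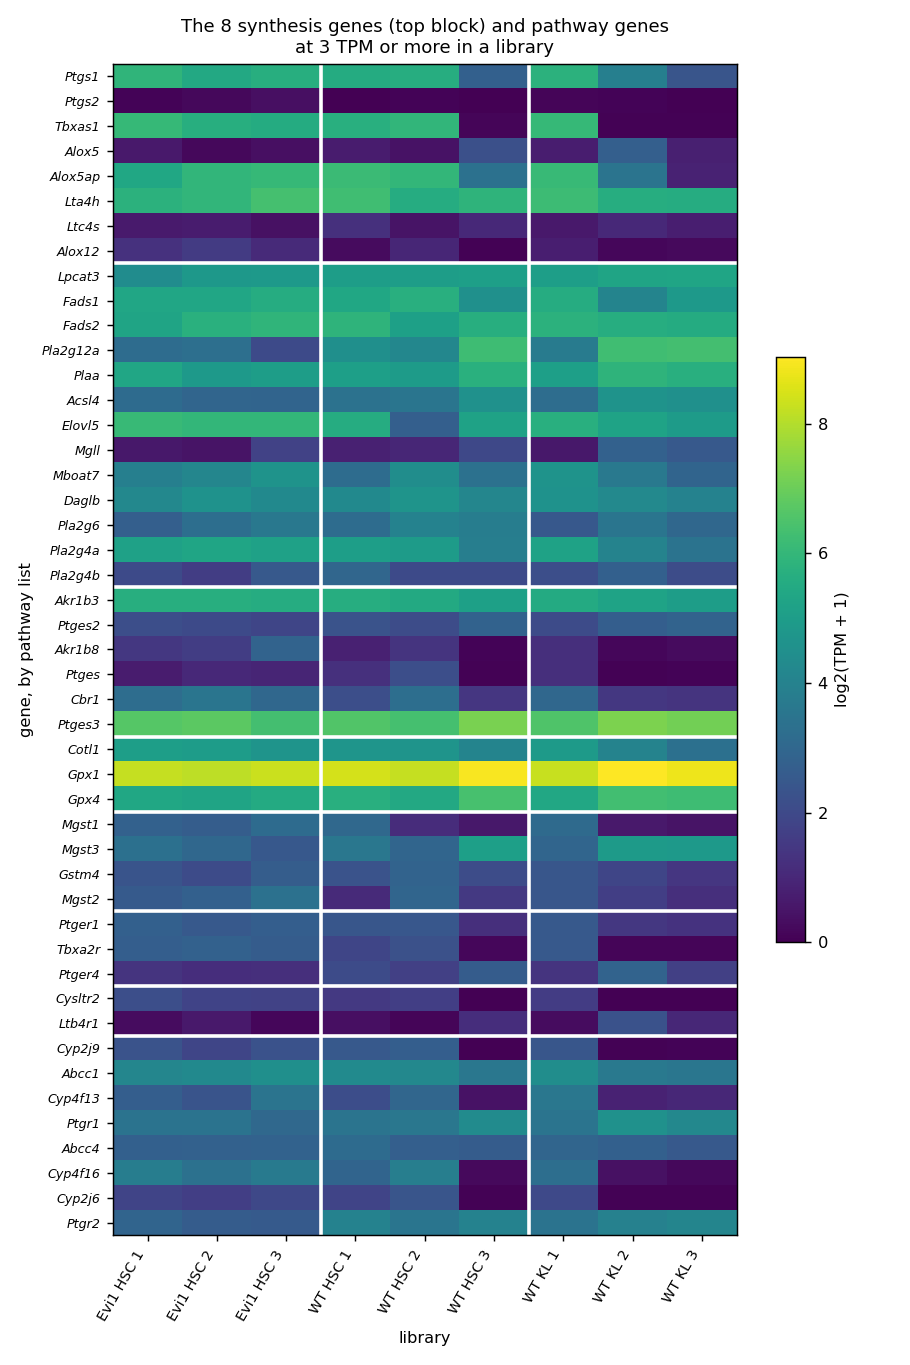
Heat map of log2(TPM + 1) for the 8 synthesis genes (top block) and for 39 pathway genes that reached 3 TPM in a library, in blocks by pathway list, with 1 column per library. Tbxas1, Tbxa2r, Cysltr2 and Cyp4f16 are dark under the label WT HSC replicate 3 and in replicates 2 and 3 of WT KL, where Cyp4f16 is at 0.153 to 0.327 TPM, while Lta4h is bright in all 9 columns.

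Several of these genes are also used by platelets, macrophages, mast cells and granulocytes, so markers of those cells were read beside them. The 10 megakaryocyte and platelet markers summed to 152 to 201 TPM in Evi1 HSC, to 215 and 218 TPM in WT HSC replicates 1 and 2, and to 18.8 and 18.9 TPM in WT KL replicates 2 and 3. Under the label WT HSC replicate 3 the sum was 19.3 TPM, and under the label WT KL replicate 1 it was 220 TPM. It thus moved with Tbxas1, Ptgs1 and Alox5ap. The platelet chemokine gene Pf4 was at 2.31 to 8.60 TPM in Evi1 HSC and Gp6 at or below 0.0986 TPM. In Evi1 HSC 7 or 8 of the 10 reached 1 TPM, against 5 and 6 in WT KL replicates 2 and 3.

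The 10 macrophage markers summed to 18.1 to 22.4 TPM in Evi1 HSC, with 3 or 4 of the 10 at 1 TPM or more. In the libraries labelled WT HSC they summed to 9.29 to 13.9 TPM and in those labelled WT KL to 10.2 to 13.6 TPM, with 2 or 3 of the 10 at that level in each library. This list summed higher in Evi1 HSC than in all WT libraries, and how many of all genes part the groups in this way was not counted. Mrc1 had 6.38, 6.37 and 7.81 TPM in Evi1 HSC, against 0 to 5.61 TPM in WT libraries, and Cd68 had 10.3, 6.78 and 7.78 TPM, against 1.67 to 6.67 TPM. Csf1r went the other way, with 1.83 to 2.06 TPM in Evi1 HSC, against 6.73 and 7.68 TPM in WT KL replicates 2 and 3. C1qa was at or below 0.347 TPM in all 9 libraries. Alox5 was highest in the same 2 libraries as the mast cell, basophil and eosinophil list and the granulocyte list. The 10 markers of mast cells, basophils and eosinophils summed to 0.968 to 4.12 TPM in Evi1 HSC, to 1.05 and 0.677 TPM in WT HSC replicates 1 and 2, and to 60.1 and 13.3 TPM in WT KL replicates 2 and 3. Under the label WT HSC replicate 3 the sum was 32.7 TPM, and under the label WT KL replicate 1 it was 1.24 TPM. Hdc, the histamine-forming enzyme, made up 39.6 TPM of the sum in WT KL replicate 2, beside 12.9 TPM of Cpa3, 3.98 TPM of Ms4a2 and 2.59 TPM of Prss34. Gzmb and Mcpt4 were listed at 0 in all 9 libraries. The 8 granulocyte markers summed to 32.3 to 37.7 TPM in Evi1 HSC, 39.9 and 25.2 TPM in WT HSC replicates 1 and 2, and 2062 and 607 TPM in WT KL replicates 2 and 3. Under the label WT HSC replicate 3 they summed to 1137 TPM, and under the label WT KL replicate 1 to 38.7 TPM. The 6 endothelial markers, some of which stem cells also express, moved with Tbxas1 too, at 122 to 165 TPM in Evi1 HSC, 90.7 and 150 TPM in WT HSC replicates 1 and 2, and 4.75 and 3.54 TPM in WT KL replicates 2 and 3. Over the 9 libraries, 7 erythroid markers summed to 633 to 3494 TPM, 6 lymphoid markers to 0.864 to 16.4 TPM and 5 hepatocyte markers to 0.239 to 22.03 TPM. The part of other cells in these results was not tested.

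**Figure D4:**
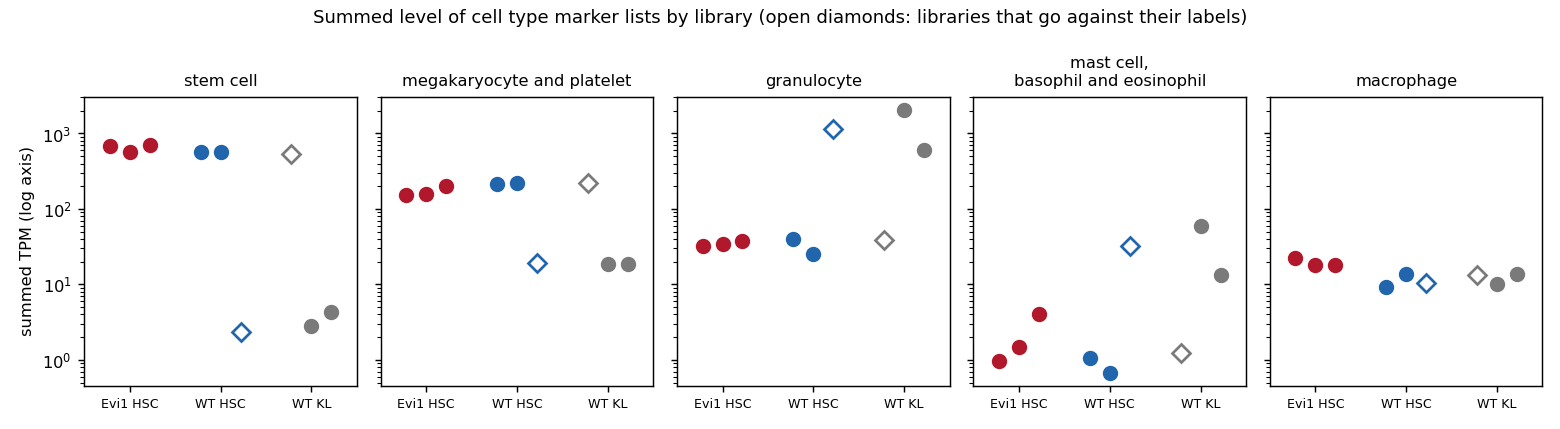
Summed TPM, on a log axis, of 5 lists of cell type markers in each library, with replicates 1 to 3 from left to right in each group. Open diamonds mark the libraries labelled WT HSC replicate 3 and WT KL replicate 1. The granulocyte list lies at 32.3 to 37.7 TPM in Evi1 HSC, against 2062 and 607 TPM in WT KL replicates 2 and 3.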

How the data were processed

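RNA was sequenced from 9 libraries. The deposited values are TPM per gene, in 1 table per library, per the file headers, none of them pooled. In the table of WT HSC replicate 2 the column was headed C_H3 and was taken as TPM, since its sum and range matched the others. The submitters' processing notes name HISAT2, StringTie and mm10, without saying what each did, and the sources used here give no annotation or strand setting. The TPM of listed genes added up to 56.9 to 63.8% of the scale, and depth is unknown, so no count model or counting interval was used.

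Values were analysed as log2(TPM + 1), for genes that reached 1 TPM in 3 or more libraries. limma 3.58.1 in R 4.3.3 fitted a mean per group over all libraries, with a trended prior and Benjamini-Hochberg adjustment over all tested genes. Genes were called at an adjusted p under 0.05. The fit was tested on simulated data.

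The 8 genes, the lists and the tests were chosen with earlier results of these data known. Named were the 8 genes, up to 4 called genes per pathway list averaging 10 TPM or more in some group (else the 2 with the highest mean), and the 3 genes most like each gene of at least 10 TPM. Others, such as Ptges, Mgst1 and Ptger4, were named after their values were seen. Alternatives changed the pseudocount to 0.1, the filter, the scaling, the libraries and a replicate block. Of 55488 gene IDs, 55141 matched GENCODE M21. Protein sequences were not used here. The level of 1 marker gene is not reported here.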

Additional observations from a re-analysis of the deposited data

How the results depend on the processing

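With 9 libraries, 1 gene was called in Evi1 HSC against WT HSC, 2 in Evi1 HSC against WT KL and 1 in WT HSC against WT KL. A pseudocount of 0.1 gave 0 and 1 in the first 2 comparisons, no filter gave 3, 6 and 2 in the 3, and quantile scaling gave 6 in the second. With 7 libraries the counts were 40, 8863 and 7307. On those 7, a pseudocount of 0.1 gave 30, 9038 and 7558, quantile scaling 40, 7677 and 6154, and fitting the compared groups alone 6, 8708 and 7009. Leaving out 1 library at a time gave 1 to 3, 2 to 96 and 1 to 4 genes from 9 libraries, and 5 to 27, 5641 to 8703 and 4291 to 7324 from 7. The 96 came without the library labelled WT KL replicate 1.

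Pathway counts under the alternatives were chosen after seeing the data. Of the 42 tested pathway genes, 0 were called in Evi1 HSC against WT KL with 9 libraries, also with any 1 left out. With 7 libraries 29 were called, with the 3 other settings on those libraries 30, 27 and 30, and with 1 more library left out 19 to 30. In Evi1 HSC against WT HSC, 0 were called except without WT HSC replicate 1 of the 7, where 1 (Elovl5, named after its value was seen) was called higher.

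For replicates 1, 2 and 3, the deviations of same-numbered libraries correlated at −0.03, −0.06 and −0.10 between Evi1 HSC and WT HSC, at 0.00, 0.04 and −0.05 between Evi1 HSC and WT KL, and at 0.62, −0.64 and 0.70 between WT HSC and WT KL. Deviations were taken from the means of the groups as labelled, with the 2 libraries that went against their labels kept in. The values for the WT groups carry that split, so they cannot decide whether the numbers pair the libraries. Nothing states what the numbers mark, so they were left out of the main fit. With the replicate block, 1, 2 and 1 genes were called from 9 libraries and 0, 7526 and 4947 from 7, with 30 pathway genes in Evi1 HSC against WT KL.

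In Evi1 HSC against WT HSC, the direction of Tbxas1 (1.84 with 9 libraries) turned to −0.060 with 7, −0.061 with the pseudocount of 0.1, −0.060 with the compared groups alone and −0.093 with quantile scaling. Alox5ap (0.63) turned to −0.26, −0.27 and −0.26, to −0.30 with quantile scaling and to −0.0063 with the replicate block. With 1 library left out of 9 or of 7, Tbxas1 ran from −0.21 to 2.86, Alox5ap from −0.39 to 1.12, Ptgs1 from −0.038 to 1.51, Ltc4s from −0.67 to 0.10 and Lta4h from −0.24 to 0.45. The untested Alox12 ran from 0.36 to 1.16. None of the 5 tested genes was called in the settings that keep more than 1 library in each group. For Tbxas1 this is not independent of its choice, of which high WT HSC values were part. Fits that leave a group with 1 library assume that it varies like the others. Depth is unknown, so what a value near 0 could hide is not known.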
